A study of Mus musculus with 8 samples.

Results

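Myh6 encodes alpha myosin heavy chain, and its transcript is described here from crosslinking data of the splicing factor SRSF3. The gene was taken as an interval of 28501 nt on the minus strand of chromosome 14 of the mouse mm9 genome, in which the outermost listed positions were 55558004 and 55586420. It was chosen with its high level, and its lower level in the merged list beyond the replicates, already known. Level and difference are therefore given as descriptions without a test. It held 3443 of the 769652 positions listed for replicate 1, 6808 of the 2093525 of replicate 2 and 9042 of the 3846902 of the merged list.

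All samples used were SRSF3-GFP iCLIP libraries of cultured cardiomyocytes from C57BL/6 pups of postnatal day 0 or 1 (2 replicates). The labels name no engineered allele. The cells received 15 µg of modified mRNA for SRSF3 fused to green fluorescent protein with Lipofectamine 2000, and were irradiated with UV light 48 h later. Antibodies against GFP pulled down the fusion. The tagged protein was thus added to the cell's own SRSF3. No control immunoprecipitation was used here, so no background level could be taken off. The 3 SRSF3 knockout and 3 control hearts of the series are not analysed here.

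Alpha myosin is the motor of the thick filament in the sarcomere, where it hydrolyses ATP and pulls on actin. In the mouse ventricle Myh6 replaces its neighbour Myh7, the slower beta isoform, around birth, and Mhrt is an antisense RNA of the Myh7 locus. SRSF3 is a small SR protein that binds pyrimidine-rich RNA and acts in splicing and export of mRNA. iCLIP marks the nucleotide next to the crosslink, because the reverse transcriptase stops there, and each cDNA counts once at its position.

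Replicate 1 summed to 815414 cDNAs and replicate 2 to 2253688, with a further 1138453 cDNAs in the merged list that belong to neither. Both replicate headers carry the same library identifier, and nothing says that the replicates came from separate cultures. The p-values between them compare only these libraries and cover counting error, not the spread between cultures. Counts of cDNAs follow RNA abundance as well as binding, and fewer cardiomyocytes, less Myh6 RNA per cell and less binding cannot be told apart. The identity of the cells was not checked on marker genes, since the positions carry no gene names and no annotation of mm9 was used. Intervals given below are 95% intervals and cover counting error only.

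Myh6 took about 6 of every 1000 cDNAs in both replicates. Replicate 1 had 4887 cDNAs in the interval, 0.599% of the library (Wilson interval 0.583% to 0.616%), and replicate 2 had 12562, 0.557% (0.548% to 0.567%). Per 1000000 cDNAs of the library (CPM) this was 5993 in replicate 1 and 5574 in replicate 2, a mean of 5784 ± 296 CPM (SD, n = 2). Divided by length, the mean was 203 ± 10.4 CPM per kb (SD, n = 2). The cDNAs were spread over many nucleotides: 12.1% of the nucleotides of the interval were hit in replicate 1, 23.9% in replicate 2 and 29.1% in at least 1 of them. Positions with a single cDNA made up 76.2% of the Myh6 positions in replicate 1 and 63.0% in replicate 2, and the highest count at a nucleotide was 28 in replicate 1 and 56 in replicate 2.

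The signal had a sharp 5′ edge. Counted in steps of 100 nt, the last step with at least 5 cDNAs in both replicates ended at 55585399, and distances below run from there along the minus strand. The 5 kb inside this edge held 227 ± 7.85 CPM per kb (SD, n = 2), against 3.40 ± 1.34 CPM per kb in the 5 kb upstream of it. At the other end no such edge was found, since steps of 100 nt with at least 5 cDNAs in both replicates ran up to the 3′ border of the interval. Coverage fell by 3.00 times in replicate 1 and 3.65 times in replicate 2 between the 1 kb windows centred 24.9 and 25.9 kb from the 5′ edge, but falls of up to 6.31 and 5.58 times between neighbouring windows also occurred inside the gene. In the GENCODE M21 annotation of another build, GRCm38, the Myh6 transcript used has 39 exons, spans 24721 nt and lies on the minus strand, and its upstream neighbour Mhrt lies on the plus strand. Only these lengths and this order were used, and no coordinate was carried over between builds.

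**Figure D1:**
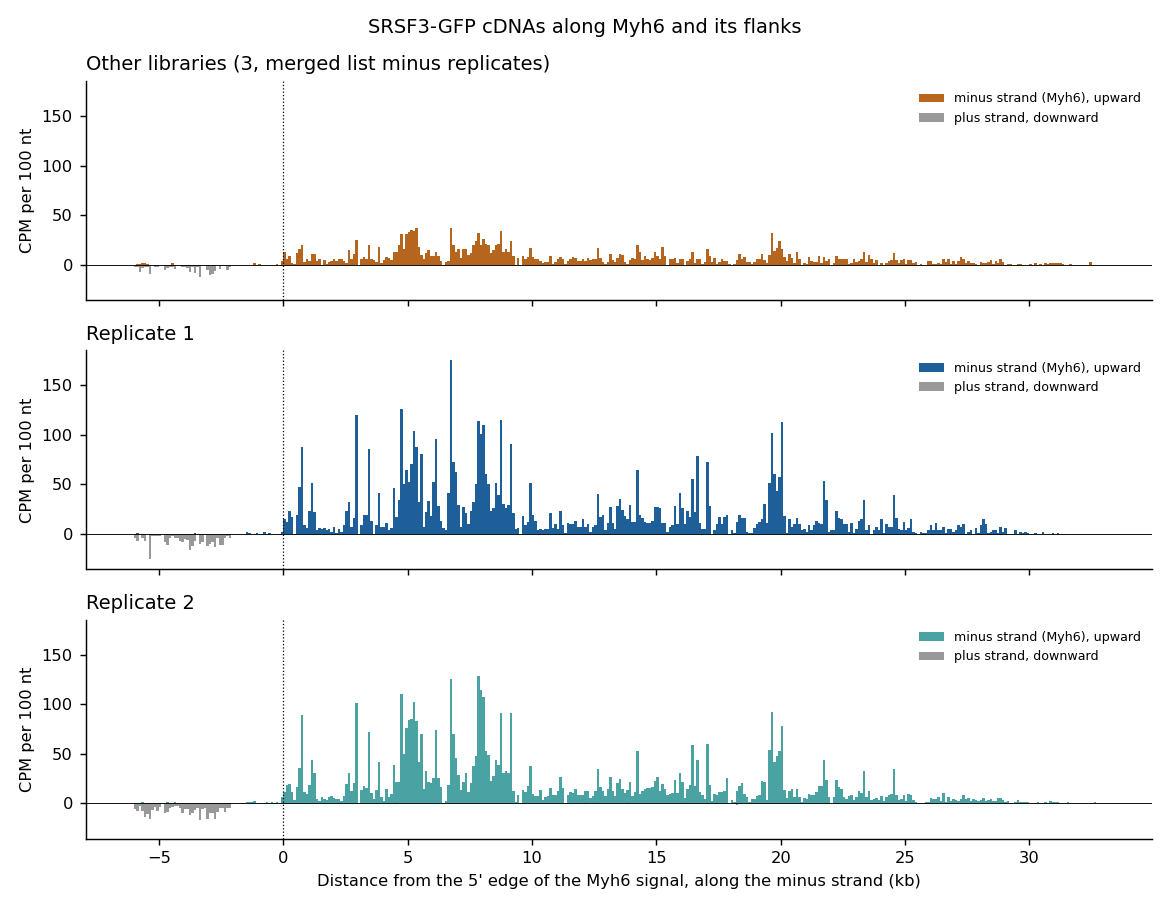
SRSF3 iCLIP cDNAs per 1000000 library cDNAs (CPM) in steps of 100 nt, against distance from the 5′ edge in kb, for the other libraries of the merged list, replicate 1 and replicate 2. The tag of the other libraries is not given. Minus-strand values point up and plus-strand values (grey) point down. The highest step lies 6.75 kb from the edge in replicate 1, at 175 CPM, and the plus strand is nearly empty over the gene but filled upstream of it.

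SRSF3-GFP cDNAs were found on more Myh6 nucleotides than its exons can hold. Within 24721 nt of the 5′ edge, 7965 nucleotides had a cDNA in at least 1 replicate. The exons of all annotated Myh6 transcripts together cover 6726 nt in GRCm38, 26.9% of the gene. If these lengths also hold in mm9, at least 1239 of the 7965 nucleotides, 15.6%, lay outside the annotated exons even if every exonic nucleotide had been hit. An annotation of mm9 was not used here, so single peaks are not assigned to exons, introns or untranslated regions.

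Along the interval the level was uneven. The interval was divided into 5 equal segments, numbered from the 5′ end. Segment 1 held 894 CPM in replicate 1 and 860 in replicate 2. Segment 2, the highest, held 2564 and 2412 CPM, which was 42.8% and 43.3% of each replicate's Myh6 cDNAs. Segment 3 had 861 and 819 CPM and segment 4 had 1159 and 1033. Segment 5, at the 3′ end of the interval, was the lowest, with 515 CPM in replicate 1 and 449 in replicate 2. From the 5′ edge to its 3′ border the interval runs 27400 nt, more than the 24721 nt the transcript spans in GRCm38. If that length holds in mm9, part of segment 5 lies beyond the transcript's 3′ end. Part of segment 1 lies upstream of the 5′ edge. The segments had the same order in both replicates, although segments 1 and 3 lay close, at 877 ± 23.8 and 840 ± 29.6 CPM (SD, n = 2).

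Segment 1 held 1.82 ± 0.13 times as many cDNAs as segment 5 (SD, n = 2). With segments laid from the 5′ edge instead of the interval's border, that ratio was 3.70. The borders of both segments move in that setting, and the dense stretch from 55580000 then lies in segment 1. The point by which 50% of the Myh6 cDNAs had been passed lay 8.65 kb from the edge in replicate 1 and 8.50 kb in replicate 2.

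**Figure D2:**
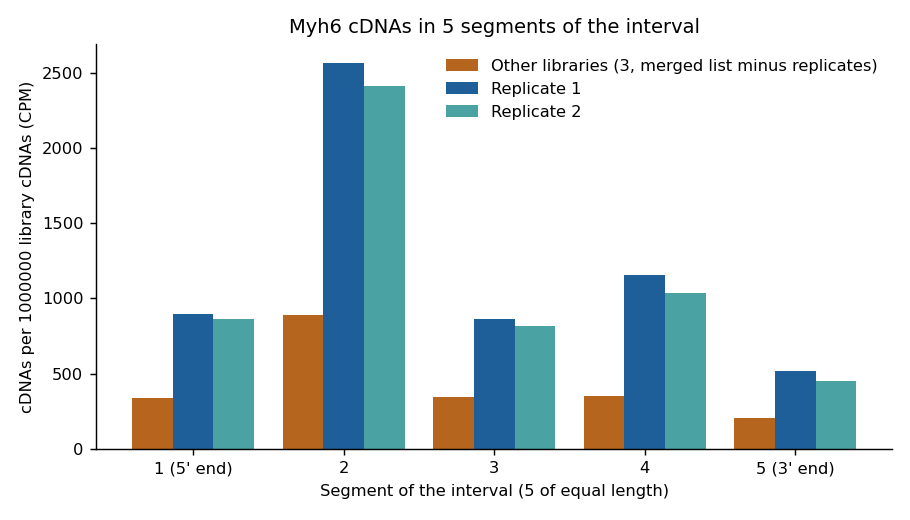
Bars give CPM in each of 5 equal segments of the interval, from the 5′ to the 3′ end, for the other libraries, replicate 1 and replicate 2, without error bars because each bar is a single track. Segment 2 is the highest in all 3 tracks, 890 CPM in the other libraries and 2564 and 2412 CPM in the replicates.

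At 1 kb the densest and the sparsest window differed 21.4 times in mean CPM. The densest 5 windows began at 55580001 (665 ± 12.0 CPM), 55577001 (582 ± 10.8), 55565001 (438 ± 48.7), 55576001 (417 ± 24.3) and 55578001 (401 ± 64.0, SD, n = 2 throughout). Their joint share of the Myh6 cDNAs was 43.1% in replicate 1 and 43.4% in replicate 2. The 4 of them that lie between 55576001 and 55581000 lie next to each other or 1 window apart, while the window at 55565001 stands alone. Its neighbours at 55566001 and 55564001 held 109 ± 2.43 and 76.7 ± 2.64 CPM (SD, n = 2). The sparsest 5 windows began at 55559001 (31.0 ± 8.13 CPM), 55583001 (45.6 ± 2.04), 55558001 (50.3 ± 5.21), 55561001 (60.0 ± 0.14) and 55585001 (70.6 ± 0.72). Of these, 55583001 lies inside the 5′ part of the gene, between windows of 246 and 267 CPM. The windows at 55559001 and 55558001 are centred 25.9 and 26.9 kb from the 5′ edge, beyond the 24721 nt the transcript spans in GRCm38. If that length holds in mm9, the 21.4-fold range takes in sequence beyond the transcript. The window at 55585001 crosses the 5′ edge. The median window held 158 CPM in replicate 1 and 153 in replicate 2.

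At 100 nt the profile broke into short dense runs on a lower, nearly continuous level. Of 286 steps, 266 had a cDNA in both replicates and 7 had none in either. Runs of steps at 3 times the median step or more in both replicates (33.1 CPM in replicate 1 and 33.3 in replicate 2), a threshold chosen after the values were seen, numbered 22 and covered 4300 nt, 15.1% of the interval. In them lay 53.3% of the Myh6 cDNAs in replicate 1 and 51.9% in replicate 2. Most were short: 16 of the 22 were a single step long, and 5 reached 300 nt or more.

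Those 5 longer runs covered 2500 nt and held 33.1% and 33.6% of the Myh6 cDNAs of replicates 1 and 2. The strongest ran from 55580000 to 55580699, 5.05 kb from the 5′ edge, with 558 CPM in replicate 1 and 591 in replicate 2. The run from 55577100 to 55577699 had 486 and 498 CPM, and that from 55565300 to 55565899, far from the others at 19.8 kb, had 427 and 367. The run from 55578400 to 55578699 had 310 and 241 CPM and that from 55576600 to 55576899 had 206 and 173. The first 2 were higher in replicate 2 and the other 3 in replicate 1. The single step with the highest mean was 55578600 to 55578699, with 143 cDNAs (175 CPM) in replicate 1 and 282 (125 CPM) in replicate 2. In replicate 2 alone, the step from 55577500 to 55577599 was slightly higher, at 128 CPM.

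No single nucleotide dominated Myh6. The 10 nucleotides with the highest CPM in the lower of both replicates summed to 135 cDNAs in replicate 1, 2.76% of the gene's 4887, and 309 in replicate 2, 2.46% of 12562. The strongest 1% of the nucleotides, 285 in each replicate, held 24.4% and 19.2% of the cDNAs. The shares are not at equal depth, since replicate 2 was 2.76 times deeper.

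The leading nucleotide was 55568339, 17.1 kb from the 5′ edge, with 20 cDNAs in replicate 1 and 56 in replicate 2. In CPM these were 24.5 and 24.8, and the count was 62.5 and 102 times the mean per nucleotide of the 100 nt on either side. The nucleotide at 55576627, 8.77 kb from the edge, came next with 28 and 40 cDNAs, 34.3 CPM in replicate 1 and 17.7 in replicate 2, and stood 65.1 and 35.1 times above its surroundings. It was the highest of all in replicate 1 and had the largest spread of the 10, 26.0 ± 11.7 CPM (SD, n = 2). The nucleotide at 55565768, inside the isolated run at 19.8 kb, had 15 and 34 cDNAs, and 55580607, inside the strongest run, had 12 and 34.

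The other 6 nucleotides were 55582467, 55578686, 55578655, 55581973, 55579187 and 55571113, with 7 to 13 cDNAs in replicate 1 and 19 to 34 in replicate 2. They exceeded their surroundings by 10.3 to 34.7 times in replicate 1 and 10.3 to 33.6 times in replicate 2. Of the 10, 55578655 and 55578686 are 31 nt apart, less than the 80 to 200 nt of an RNA fragment. All others lie at least 494 nt from the next. Just inside the rank used stood 55571113, with 8.43 CPM in the lower replicate, and just outside it 55582479, with 7.99.

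**Figure D3:**
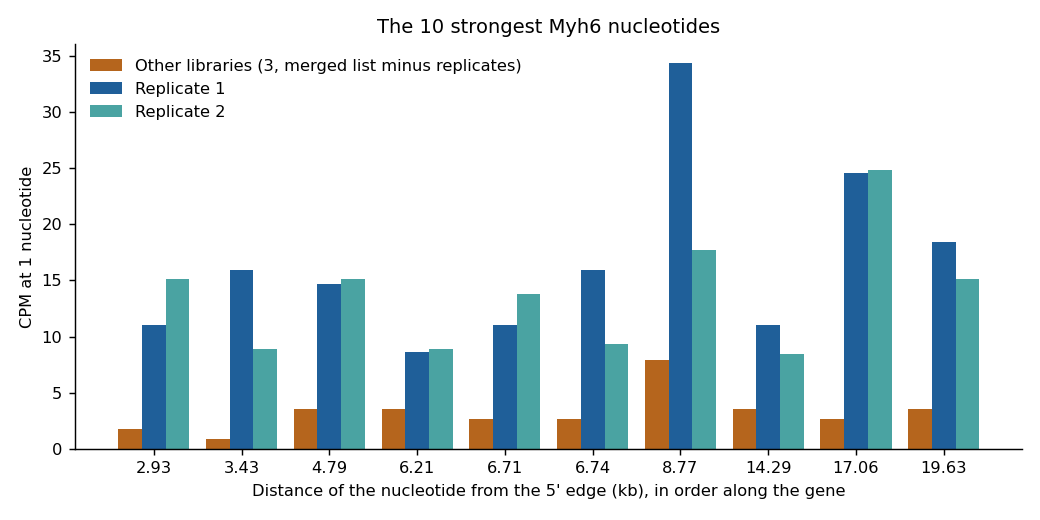
Bars give CPM at each of the 10 strongest Myh6 nucleotides for the other libraries, replicate 1 and replicate 2, in order of distance from the 5′ edge in kb. The nucleotides were chosen by the lower replicate, so the replicates are high by choice. The other libraries lie between 0.88 and 7.91 CPM and below both replicates at all 10.

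Stretches without a cDNA were short. The longest in both replicates ran from 55559771 to 55559945 (175 nt), near the 3′ end of the interval, where the other libraries had 3 cDNAs. The next ones, from 55582279 to 55582423 (145 nt) and from 55563245 to 55563386 (142 nt), were empty in the other libraries too. A count of 0 allows up to 3 cDNAs, 3.68 CPM in replicate 1 and 1.33 CPM in replicate 2. In all, 29 stretches inside the covered part reached 50 nt. Whether reads can be placed uniquely in them was not tested.

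Of the 3443 Myh6 positions of replicate 1, 1964 were listed in replicate 2, 57.0% (Wilson interval 55.4% to 58.7%), against 4.79% (4.74% to 4.84%) of positions in the rest of the genome. Within 100 nt of the replicate 1 positions, 38.5% of the neighbouring nucleotides were listed in replicate 2, which is the local density to read the share against. In the other direction, from the deeper to the shallower library, 28.8% of the 6808 Myh6 positions of replicate 2 were listed in replicate 1 (27.8% to 29.9%), as were 856 of the 4286 with 1 cDNA (18.8% to 21.2%). Of the replicate 1 positions with 1 cDNA, 50.4% recurred (48.5% to 52.3%), of those with 2 cDNAs 71.7% (67.7% to 75.3%), and of those with 3 to 5 cDNAs 89.4% (85.0% to 92.7%). All 38 positions with more than 5 cDNAs in replicate 1 recurred. In the rest of the genome the shares were 3.78% for 1 cDNA, 22.8% for 2 and 86.0% for 3 to 5. They were 99.9% for 6 to 10 cDNAs and 100% for more than 10, so strong positions recurred there about as often. Within 5 nt, 95.7% of the replicate 1 positions had a replicate 2 position. With 38.5% of neighbouring nucleotides listed, most stretches of that width can be expected to hold a listed position anyway. Nothing is read from that share.

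The shape of the profile was close to the same in both replicates. Across 29 bins of 1 kb, the replicates' log2(CPM + 1) correlated at 0.993 (Pearson) and 0.988 (Spearman), and across 286 bins of 100 nt at 0.916 and 0.922. These are descriptions across bins of the same 2 libraries, not independent replicates. The test between the replicates covered all windows of the genome with at least 50 cDNAs in both replicates together. In an exact binomial test against the library totals with Benjamini-Hochberg adjustment, 1 of 28 Myh6 windows of 1 kb differed at a 5% false discovery rate, where 0.735% of the 2721 windows tested did, all of them higher in replicate 1. That window, from 55571001 to 55572000, had 212 cDNAs (260 CPM) in replicate 1 and 420 (186 CPM) in replicate 2, a log2 ratio of 0.48 (exact binomial test, adjusted p = 0.0154). With a window minimum of 20 cDNAs it no longer passed (exact binomial test, adjusted p = 0.0794), and with a minimum of 100 the window at 55578001 passed as well (adjusted p = 0.0197).

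Over the 28 windows the log2 ratio of replicate 1 to replicate 2 ran from -0.26 to 0.54 with a median of 0.06, and the median over all windows tested was also 0.06. At 10 kb, 0 of the 3 Myh6 windows passed the exact binomial test, where 0.0934% of 13920 windows did (0.079% higher in replicate 1 and 0.0144% higher in replicate 2), and 2 of the 3 had an unadjusted p under 0.05, where 5.57% of all windows tested did. Their log2 ratios were 0.16 (interval 0.07 to 0.25), 0.11 (0.04 to 0.19) and 0.01 (-0.09 to 0.10), in order of their start.

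**Figure D4:**
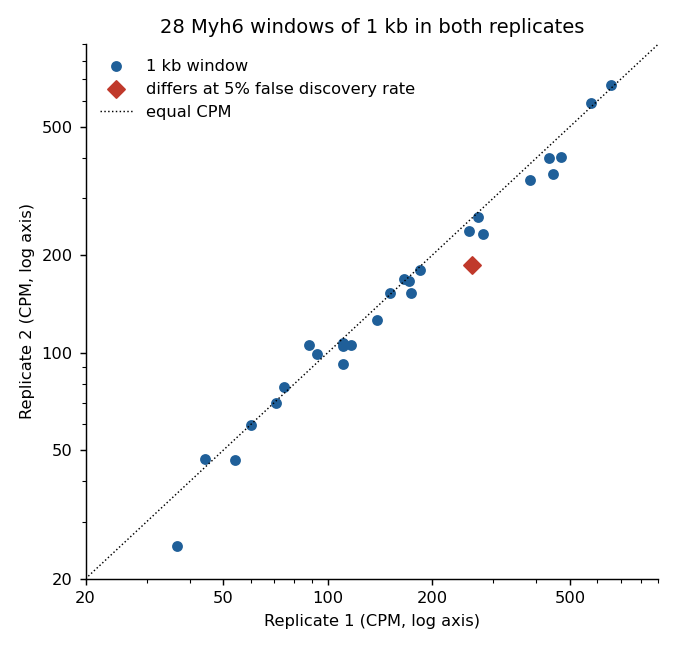
Each point is 1 of the 28 Myh6 windows of 1 kb, with CPM in replicate 1 on the x axis and in replicate 2 on the y axis, both on log axes. Points follow the dotted line of equal CPM. The red diamond is the window from 55571001, where replicate 1 had 260 CPM and replicate 2 had 186 CPM.

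The opposite strand of the interval was nearly empty. It held 1 cDNA in replicate 1, 0.0205% of the cDNAs of both strands (Wilson interval 0.0036% to 0.116%), and 19 in replicate 2, 0.151% (0.0967% to 0.236%). In 23 other windows of 10 kb with at least 500 CPM in both replicates, the median share was 0.029% in replicate 1 and 0.080% in replicate 2. Of the 17 plus-strand positions in replicate 2, 6 lay at a nucleotide that was also listed on the minus strand. On the minus strand, 23.9% of the interval's nucleotides were listed in replicate 2. Upstream of Myh6 the signal lay on the plus strand. The 10 kb upstream of the interval held 91.3 ± 1.00 CPM per kb on the plus strand and 2.54 ± 0.12 on the minus strand (SD, n = 2). The first plus-strand step of 100 nt with at least 5 cDNAs in both replicates began 2401 nt upstream of the 5′ edge. In GRCm38 the gap between Myh6 and Mhrt is 1750 nt, counted from the most upstream annotated start of Myh6.

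Beyond the 3′ border the minus-strand signal faded over several kb. Kb 1 outside the interval held 42.3 ± 7.78 CPM (39 and 83 cDNAs in replicates 1 and 2), kb 2 held 27.2 ± 0.37 (22 and 62), kb 3 held 12.6 ± 0.43 (10 and 29) and kb 4 held 6.45 ± 2.18 (4 and 18, SD, n = 2). Kb 5 had 0 and 7 cDNAs. Over these 5 kb replicate 1 had 18.4 and replicate 2 had 17.7 CPM per kb, against a mean of 3.40 ± 1.34 in the 5 kb upstream of the 5′ edge. The last 2 kb inside the border held 40.7 ± 6.67 CPM per kb, about the level of kb 1 outside it, so no drop was seen at the border itself. This stretch lies outside the interval that was chosen, and no annotated gene is assigned to it here.

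The merged list held less Myh6 signal per cDNA in the libraries beyond the replicates. It sums 5 libraries, and its excess over the 2 replicates, called the other libraries, cannot be divided among the 3 of them. The list's header gives these only as SRSF3 cardiomyocyte libraries. Their tag, treatment and age are not given, so how alike they are to the replicates is not known. The other libraries had 2424 Myh6 cDNAs, 2129 CPM, against 5993 CPM in replicate 1 and 5574 in replicate 2. Relative to both replicates together (5685 CPM) this was a log2 ratio of -1.42, so the share of Myh6 was 2.67 times as large in the replicates. Myh6 cDNAs of the other libraries were 12.2% of those in the merged list, while the other libraries made up 27.1% of the whole list. When each position was counted once, the log2 ratio was -0.61. That setting depends on depth. Each listed Myh6 position held a mean of 1.42 cDNAs in replicate 1 and 1.85 in replicate 2, against 1.18 in the other libraries. It therefore takes more cDNAs from the replicates.

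The lower level ran along the interval. The other libraries were below both replicates in all 28 windows of 1 kb, and at least 2-fold below the replicates together in 22 of them, where 28.1% of 4562 windows of the genome with at least 50 cDNAs in the merged list were. The rule used this contrast, so nothing is read from the count. The log2 ratio ranged from -1.97, in the window at 55569001, to -0.33, at 55583001, with a median of -1.34. Among the 14 denser windows the median was -1.58 and among the 14 sparser ones -1.04. Summed over the 22 dense runs the log2 ratio was -1.75, and summed outside them -1.13. Windows and runs were ranked by the replicates' own counts, so no difference between dense and sparse stretches is read from these values.

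The other libraries also had their highest level in segment 2 and their lowest in segment 5, while segments 1, 3 and 4 lay between 338 and 352 CPM. Their segment 2 held 890 CPM, 41.8% of their Myh6 cDNAs, and segment 5 held 207 CPM, 9.74%. Their segment 1 held 1.63 times as many cDNAs as segment 5, and 50% of their Myh6 cDNAs had been passed at 8.73 kb. Across 29 bins of 1 kb, log2(CPM + 1) in the other libraries correlated with replicate 1 at 0.954 and with replicate 2 at 0.969 (Pearson, with Spearman values of 0.919 and 0.937). Across 286 bins of 100 nt these were 0.798 and 0.855 (Spearman 0.791 and 0.833). Between the replicates they were 0.916 (Pearson) and 0.922 (Spearman) at that scale. All 10 leading nucleotides had a cDNA in the other libraries, from 1 at 55581973 to 9 at 55576627. Of the 2059 Myh6 positions of the other libraries, 63.3% were listed in a replicate and 56.9% in replicate 2. Within 100 nt of these positions, 36.7% of the neighbouring nucleotides were listed in replicate 2, which is the local density to read the latter share against. In the kb beyond the 3′ border the other libraries had 18.4, 21.1, 4.39 and 13.2 CPM from kb 1 to kb 4, against 42.3, 27.2, 12.6 and 6.45 in the replicates' means.

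**Figure D5:**
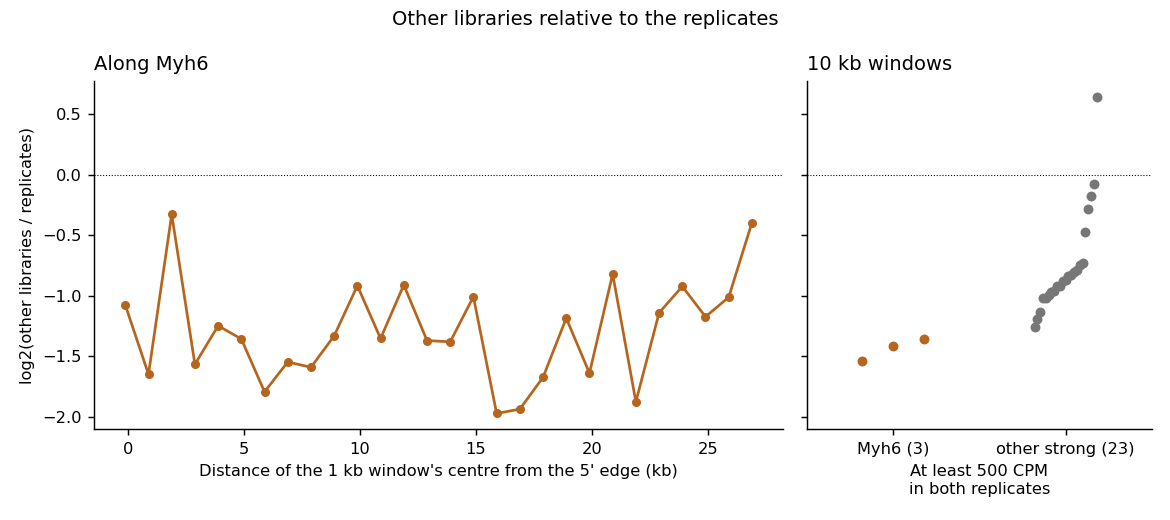
The left panel gives the log2 ratio of the other libraries to both replicates in each 1 kb window, against distance of its centre from the 5′ edge in kb, and the right panel gives it for 10 kb windows of at least 500 CPM in both replicates. All 28 windows lie below 0, from -1.97 to -0.33, and the 3 Myh6 windows at -1.54 to -1.36 lie below the other 23.

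Other strong windows were mostly lower in the other libraries as well, though less so. Of 26 windows of 10 kb with at least 500 CPM in both replicates, 30.8% were at least 2-fold lower, the 3 Myh6 windows among them. The Myh6 windows had log2 ratios of -1.54, -1.41 and -1.36, the lowest of the 26, while the other 23 ran from -1.26 to 0.64 with a median of -0.87, and 22 of those 23 lay below 0. All 26 were chosen for high values in the replicates. Over 21841 windows of 10 kb with at least 50 cDNAs in the merged list, the median was -0.12. By level, the 3 Myh6 windows ranked 12th, 6th and 11th of the 26 in the other libraries, 7th, 5th and 8th in replicate 1 and 6th, 5th and 7th in replicate 2, in order of their start.

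The windows nearest to Myh6 in this ratio were named by position. The first was chromosome 14 from 55590001 to 55600000 on the plus strand, upstream of Myh6, with 412 CPM in the other libraries, against 1007 CPM in replicate 1 and 976 in replicate 2, a log2 ratio of -1.26. Chromosome 2 from 76580001 to 76590000 on the minus strand followed, with 239 CPM against 567 and 539 (-1.19), and chromosome 7 from 51730001 to 51740000 on the plus strand, with 345 CPM against 654 and 794 (-1.13). The likeness is a difference in 1 ratio over these tracks and says nothing of shared function.

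Set beside the other 23 strong windows, the 3 Myh6 windows listed 1606 to 3039 positions in replicate 2, against a median of 1448 and a highest value of 3669. Their highest nucleotide held 1.07% to 1.46% of a window's cDNAs in replicate 1, against a median of 0.758% and a range of 0.535% to 5.77%. The 100 strongest nucleotides of each held 16.2% to 25.3% in replicate 2, against a median of 19.4%. In each of these measures the Myh6 windows lay within the range of the others. Between 50.9% and 63.3% of their replicate 1 positions recurred in replicate 2, against a median of 37.0% and a range of 20.3% to 98.3%. A window with more listed nucleotides leaves fewer to miss, and no local density is set beside these shares. In other windows of 1197, 1202 and 1267 CPM in replicate 2, the share was 45.75%, 61.1% and 56.2%. These are descriptions of windows chosen by level, and no test was made.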

How the data were processed

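SRSF3-GFP iCLIP tracks of neonatal cardiomyocytes (2 replicates) were used, with a merged list that adds 3 other SRSF3 cardiomyocyte libraries. Per the labels' protocols, crosslinking used UV of 254 nm at 100 mJ, and RNA was cut to 80 to 200 nt. The authors' deposited tracks give each nucleotide a signed score, a cDNA count that is negative on the minus strand. The file headers name them as cDNA hits in mm9 with Ensembl 59, and the values are whole numbers, not scaled to depth. Per the submitters' processing notes Bowtie 0.10.1 was used. Collapsing of duplicates, reads with several matches and filters are not given in the sources used here, and each could change counts in dense or repeated stretches. Both replicate headers name replicate 1 of the same library identifier, and the labels' numbers were followed.

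Positions were made 1-based. cDNAs per bin were divided by the library total (CPM). The other libraries are the merged value minus both replicates. Replicates were compared per window with a binomial test, exact and two-sided, whose expected share came from the library totals, with Benjamini-Hochberg adjustment over the genome (scipy 1.17.1, Python 3.11.15). On simulated data with 200 of 2721 windows of 1 kb changed, the test called 88% at a 4-fold and 41% at a 2-fold change, and 2 unchanged windows. With 200 of 13920 windows of 10 kb changed, it called 77% and 23%, and 1 unchanged window. The changed windows were drawn from all with at least 50 cDNAs. The Myh6 windows of 1 kb held 87 to 2052, so these shares are not theirs. The simulated counts held counting error only. They cannot show how often unchanged windows are called where libraries differ by more than that. The members, lists and tests were chosen with earlier results of these data known. Named by rule were the 10 strongest nucleotides by the lower replicate, the 5 densest and 5 sparsest 1 kb windows, the 3 longest empty stretches, windows that differed, and the 3 strong windows nearest in ratio. Dense runs and segments outside the interval were chosen after values were seen. No mm9 sequence was used here, so no sequence is shown. Alternatives are given in the closing section.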

Additional observations from a re-analysis of the deposited data

How the results depend on the processing

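With library totals that left out the mitochondrial genome and the other windows of at least 1000 CPM, the Myh6 level was 6020 CPM and the log2 ratio of the other libraries to the replicates -1.42. With the interval narrowed by 1 kb on either side the level was 5728 CPM. Counted as positions per 1000000 positions instead of cDNAs, the Myh6 level was 3863 ± 864 (SD, n = 2), the ratio of segment 1 to segment 5 1.47 and the log2 ratio of the other libraries to the replicates -0.61. A position counts once there however many cDNAs it holds, so these values depend on depth. With segments laid from the 5′ edge to the last step of at least 5 cDNAs the segment ratio was 3.70. Capping each nucleotide at 5 cDNAs took the mean share on the strongest 1% from 21.8 ± 3.70% to 17.1 ± 6.83% (SD, n = 2). Recurrence was 95.7% within 5 nt, a share that the local density keeps high whatever the agreement, and 78.3% for positions of at least 2 cDNAs. The number of 1 kb windows that differed between the replicates, 1 of 28, was 0 of 29 with a minimum of 20 cDNAs, 2 of 27 with a minimum of 100, and 2 of 28 with those library totals. In the first case 16212 windows were tested and in the second 768, against 2721. Over all windows tested, 0.105% passed with a minimum of 20, 2.73% with a minimum of 100 and 0.845% with those library totals. With windows of 500 nt 1 of 54 passed, from 55578501 to 55579000, where 1.51% of 1660 windows did.

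Leaving out each replicate gave a Myh6 level of 5574 to 5993 CPM, a segment ratio of 1.74 to 1.91, an opposite-strand share of 0.0205% to 0.151%, a share on the strongest 1% of 19.2% to 24.4% and a log2 ratio of the other libraries of -1.49 to -1.39. With 2 replicates these ranges are the values of the single replicates and say nothing of stability. No paired analysis was possible because the samples used form a single group, so no groups share replicate numbers. Depth limits the opposite strand, with 1 cDNA in replicate 1, and the single nucleotides, most of which hold 1 cDNA.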
